A study of Homo sapiens with 6 samples.

Results

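The integrated stress response genes described here are 10 transcripts picked by symbol from the 17356 listed in each library: ATF4, DDIT3, PPP1R15A, TRIB3, CHAC1, ASNS, SLC7A11, NUPR1, DDIT4 and SESN2. All 10 were listed once. They were measured by RNA-seq in C4-2B-ENZR, a human prostate cancer cell line that is resistant to the prostate cancer drug enzalutamide. The labels put 3 libraries in a KIF15 knockdown group (siKIF15, for KIF15 siRNA) and 3 in a control group (NC). The sample titles do not state what the control cells were given. Both groups were the same line in serum-containing medium, and no enzalutamide dose, harvest time or siRNA sequence is given in the labels. KIF15 is a kinesin of the mitotic spindle, and the study concerned its part in resistance to the drug. Whether the 3 libraries per group are separate cultures is not stated; p-values thus reflect spread among libraries alone, possibly technical spread. In such bulk samples, fewer cells of a kind and less RNA per cell cannot be told apart.

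The integrated stress response is the pathway by which cells slow translation under stress. Kinases that sense misfolded protein, amino acid shortage, double-stranded RNA or heme shortage phosphorylate the alpha subunit of the initiation factor eIF2, which lowers protein synthesis as a whole while the mRNA of the transcription factor ATF4 is translated more. ATF4 then switches on genes of amino acid supply and redox balance, the transcription factor gene DDIT3 (CHOP), and PPP1R15A (GADD34), whose product brings protein phosphatase 1 to eIF2 alpha and so closes the loop. Much of this control acts on phosphorylation and translation, which RNA levels do not measure.

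Values are the deposited signal per gene, which is on 1 scale across the 6 libraries but has no stated unit, and the depth behind it is unknown. Summed signal per library was 50360191 to 53157388 in the libraries labelled siKIF15 and 49460840 to 50063012 in NC, and these sums are not depths. KIF15, the siRNA target, stood at 294.8, 333.1 and 363.0 in the libraries labelled siKIF15 and at 366.4, 403.6 and 319.0 in NC, so the groups overlapped. Its log2 change was -0.13 ± 0.14 (SE; limma adjusted p = 0.57). The target does not bear out the label, and every direction below is that of libraries labelled siKIF15 against NC libraries. The 8 prostate markers used were all listed, with KLK3 at 68869 ± 4124 and 64846 ± 2407 (SD, n = 3 each); PTPRC, the defining leukocyte marker, was at 0 in each library labelled siKIF15 and at 0.79, 0.10 and 3.8 in NC. Of the 3 leukocyte markers used, CD68, a lysosomal protein of macrophages that other cells also make, passed, at 3349, 3556 and 2889 in the libraries labelled siKIF15 and 1882, 1632 and 1836 in NC (1.83-fold, limma adjusted p = 5.9e-06). CD14 averaged 21.6 ± 16.2 in the libraries labelled siKIF15 and 21.5 ± 10.0 in NC (SD, n = 3 each). No fibroblast or endothelial marker that was tested passed. COL1A1 averaged 329.0 in the libraries labelled siKIF15 and 331.6 in NC, VWF 355.4 and 324.1, and PDGFRB 138.6 and 173.8. The means of COL1A2, COL3A1, DCN, PECAM1 and CDH5 were under 10 in both groups. The part of CD68 in the results below was not tested. The second principal component held 9.76% of the variance and set siKIF15 3 (score 25.4) apart from siKIF15 2 (score -19.5).

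Of the 10 members, 4 rose (PPP1R15A, NUPR1, ATF4 and DDIT4), 3 fell (SLC7A11, SESN2 and DDIT3) and 3 did not pass (CHAC1, ASNS and TRIB3), at a limma adjusted p under 0.05. Over all 16548 genes tested 18.0% were called, 9.66% higher and 8.33% lower; among the 9351 with a mean of at least 500, as 9 of the members had, 24.1% were called. The groups did not overlap for 7 members, against 34.8% of all genes tested and 41.7% of those with a mean of at least 500. The median log2 change was 0.15 over the members and -0.004 over all genes tested. ATF4 and its feedback gene PPP1R15A were higher, while DDIT3, which lies directly under ATF4, was lower.

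**Figure D1:**
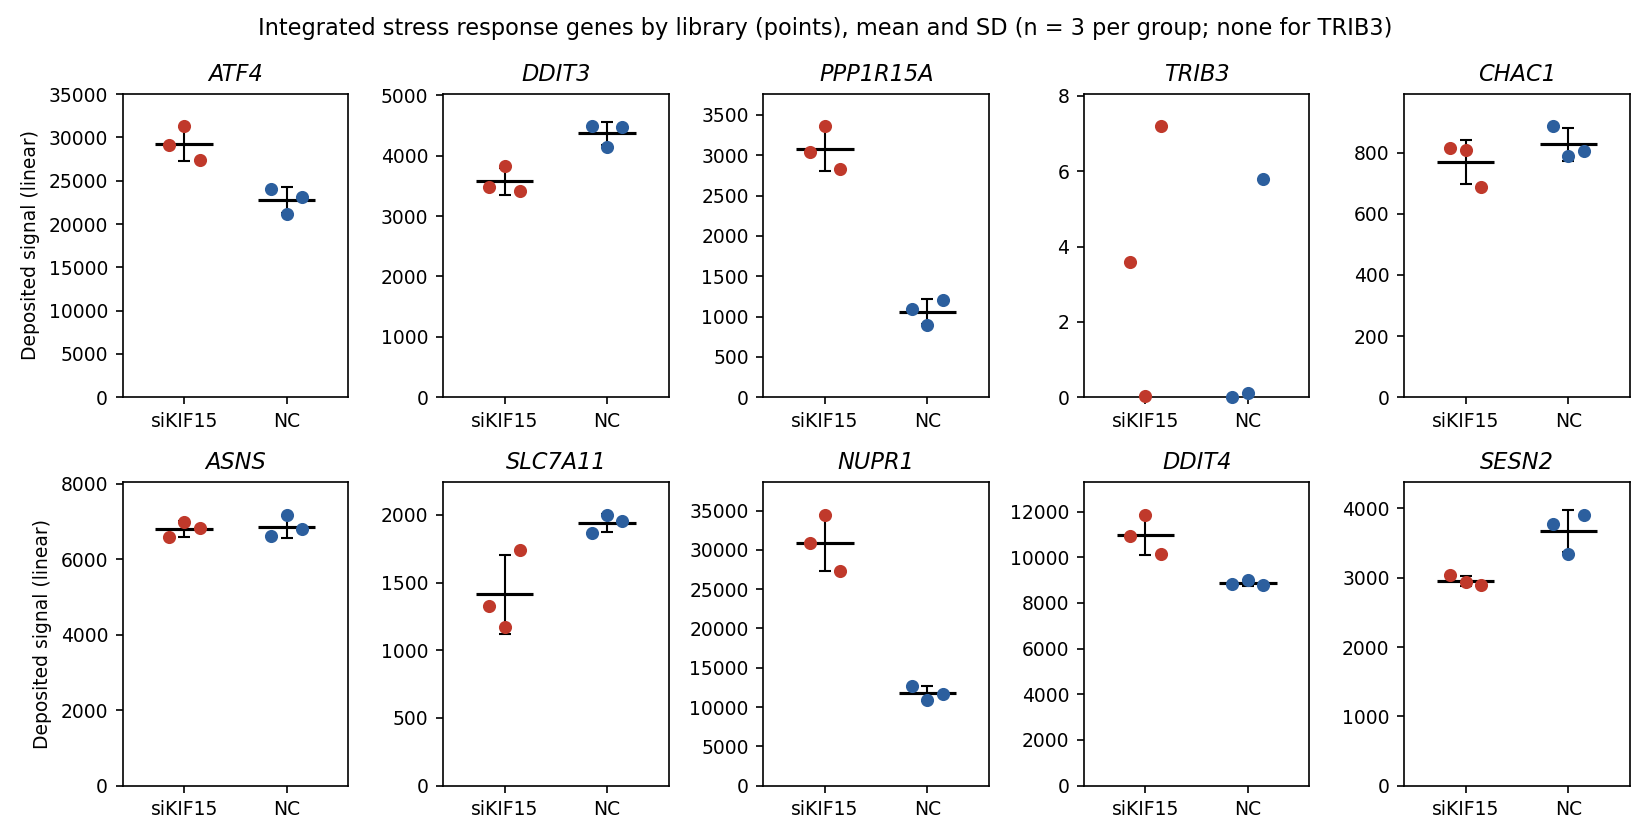
Deposited signal of each of the 10 members (linear axis from 0, a scale of its own per gene) in the 3 libraries labelled siKIF15 (red, left) and the 3 NC libraries (blue, right); bars are the mean and SD. PPP1R15A and NUPR1 stand well above NC in all 3 libraries labelled siKIF15, and TRIB3 lies below 8 in all 6 libraries.

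ATF4 encodes the transcription factor at the centre of the pathway. Its signal was 29067, 31315 and 27343 in the libraries labelled siKIF15 and 24084, 21150 and 23062 in NC. All 3 libraries labelled siKIF15 lay above all 3 NC libraries, and the means were 29242 ± 1991 and 22765 ± 1489 (SD, n = 3 each). ATF4 rose 1.28-fold, a log2 change of 0.36 ± 0.08 (SE; limma adjusted p = 0.0038). By size it was the 1062nd of the 1599 genes called higher.

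PPP1R15A encodes the stress-induced subunit that directs protein phosphatase 1 to eIF2 alpha. It stood at 3043, 3362 and 2830 in the libraries labelled siKIF15 and at 1088, 889.4 and 1200 in NC. The groups were far apart, and PPP1R15A rose 2.91-fold (log2 change 1.55 ± 0.11 SE, 95% interval 1.32 to 1.77, limma adjusted p = 4.3e-08). It was the largest change among the members and the 348th of the 1599 genes called higher. PPP1R15B, the constitutive counterpart of the same phosphatase, moved the other way, with 3195, 2957 and 3552 in the libraries labelled siKIF15 and 4061, 3737 and 3709 in NC. It fell by 0.25 on the log2 scale (limma adjusted p = 0.043). That small call ended without any single library other than siKIF15 3 (adjusted p up to 0.205) and once GC content and transcript length were corrected for (log2 change -0.12, adjusted p = 0.0933). The signal of PPP1R15A per unit of PPP1R15B, a ratio that no scaling of a library can move, was 0.953, 1.14 and 0.797 in the libraries labelled siKIF15 and 0.268, 0.238 and 0.323 in NC. The catalytic subunits PPP1CA, PPP1CB and PPP1CC did not pass, at log2 changes of 0.05, -0.11 and 0.02. PPP1CB was called lower without siKIF15 3 (-0.17, limma adjusted p = 0.0311). Its log2 change was 0.11 after the GC and length correction (limma adjusted p = 0.134).

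DDIT3 encodes CHOP, a partner and target of ATF4 known for its part in cell death under lasting stress. It stood at 3477, 3833 and 3420 in the libraries labelled siKIF15 and at 4493, 4151 and 4479 in NC, with no overlap. DDIT3 fell by 0.29 ± 0.07 on the log2 scale (SE; 95% interval -0.45 to -0.14; limma adjusted p = 0.012). The call ended without siKIF15 1, NC 1 or NC 3 (adjusted p = 0.0882, 0.0788 and 0.0785), while the log2 change kept to -0.34 to -0.26 over the fits with 1 library left out. DDIT3 signal per unit of ATF4 signal was 0.12, 0.122 and 0.125 in the libraries labelled siKIF15 and 0.187, 0.196 and 0.194 in NC.

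**Figure D2:**
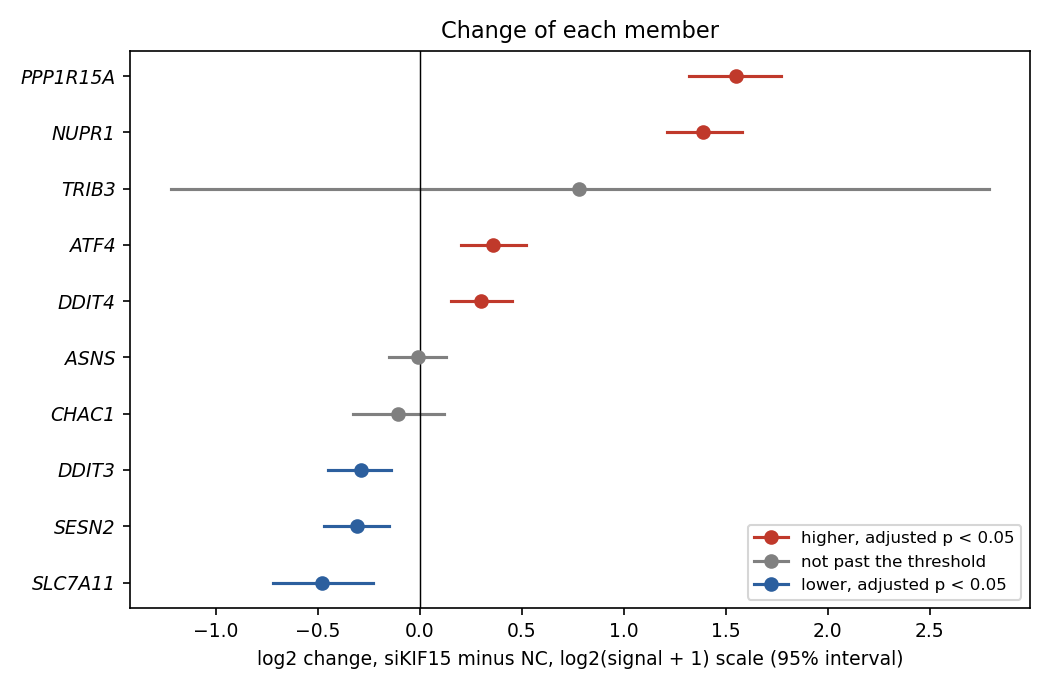
Log2 change of each member, siKIF15 minus NC on the log2(signal + 1) scale, with its 95% interval; red is higher and blue lower at an adjusted p under 0.05, grey is neither. PPP1R15A (1.55) and NUPR1 (1.39) lie apart from the other 5 called members, whose changes are between -0.48 and 0.36, and the interval of TRIB3 runs from -1.22 to 2.79.

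TRIB3 encodes a pseudokinase that is induced by ATF4 and CHOP and restrains ATF4 in turn. It was listed at 3.6, 0.04 and 7.2 in the libraries labelled siKIF15 and at 0, 0.11 and 5.8 in NC, so no fold is given (log2 change 0.78 ± 0.94 SE, limma adjusted p = 0.62). These values sit at the floor that nearly all of chromosome 20 shares in these files. Of the 252 listed protein-coding genes that lie on chromosome 20 in RefSeq, 207 (82.1%) had a mean signal under 10, against 13.1% to 26.9% of the genes on each of 22 other chromosomes. The median signal of chromosome 20 genes was 0.9, 1.1 and 1.1 in the libraries labelled siKIF15 and 1.7, 2.4 and 1.9 in NC, and no gene there had a mean above 99.6. The medians of the other chromosomes were 359 to 1622. The low TRIB3 values are therefore not read as a low level of its transcript. EIF2S2, the beta subunit of eIF2, also lies on chromosome 20 and was listed at 0.76, 4.2 and 7.2 in the libraries labelled siKIF15 and at 12.4, 5.3 and 1.8 in NC.

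**Figure D3:**
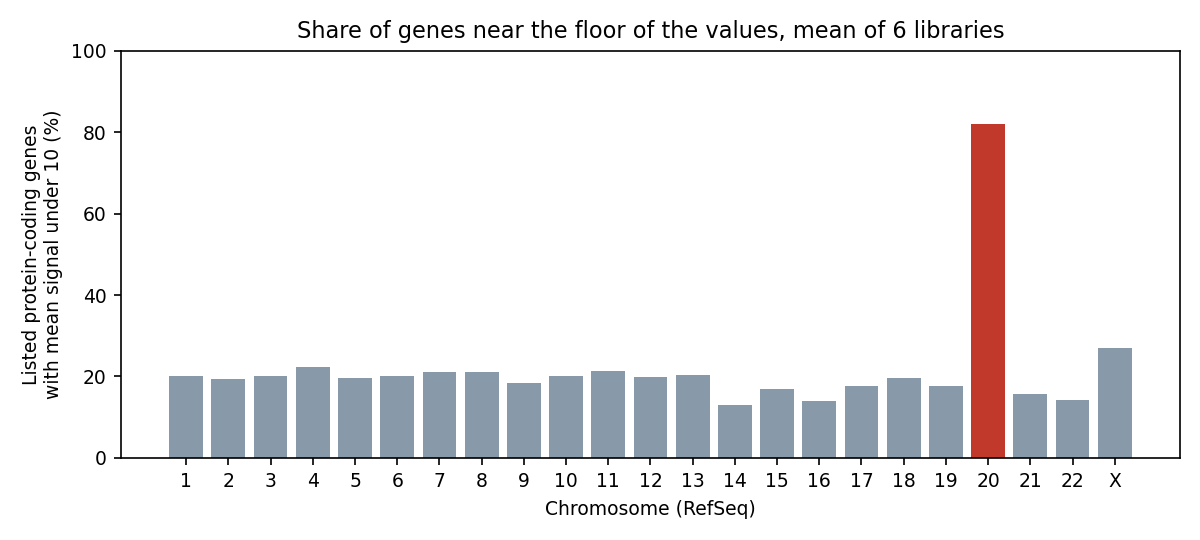
Share of listed protein-coding genes with a mean signal under 10 over the 6 libraries, by RefSeq chromosome (percent, bars from 0). Chromosome 20 (red) stands at 82.1%, and no other chromosome shown exceeds 26.9%.

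CHAC1 encodes an enzyme that degrades glutathione, and ASNS encodes asparagine synthetase. Both are shown here because they were the only members whose RefSeq window (GRCh38.p14, 250 bases before to 50 after a gene start) held TGATGNAA, the core of the C/EBP-ATF response element, on either strand. Of 35116 such windows in RefSeq, 3.62% hold it. Windows were listed for 8 members (ATF4, DDIT3, PPP1R15A, TRIB3, CHAC1, ASNS, DDIT4 and SESN2), and for ATF4, DDIT3, TRIB3 and ASNS there was more than 1. The first base of the match lies 209 bases before the start of CHAC1, as the reverse complement TTGCATCA, and 68 bases before the start of ASNS, as TGATGAAA. The 250 bases before each start follow, 5′ to 3′ on the strand of the gene, with the match in capitals. A match in these letters is a description of the sequence, not evidence of binding.
CHAC1 promoter, chr15:40953221-40953470, plus strand: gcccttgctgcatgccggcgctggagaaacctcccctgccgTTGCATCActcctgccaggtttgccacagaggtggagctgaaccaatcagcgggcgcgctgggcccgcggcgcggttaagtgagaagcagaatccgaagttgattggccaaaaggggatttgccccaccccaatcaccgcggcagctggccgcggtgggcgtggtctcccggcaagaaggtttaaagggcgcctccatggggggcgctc
ASNS promoter, chr7:97872409-97872658, minus strand: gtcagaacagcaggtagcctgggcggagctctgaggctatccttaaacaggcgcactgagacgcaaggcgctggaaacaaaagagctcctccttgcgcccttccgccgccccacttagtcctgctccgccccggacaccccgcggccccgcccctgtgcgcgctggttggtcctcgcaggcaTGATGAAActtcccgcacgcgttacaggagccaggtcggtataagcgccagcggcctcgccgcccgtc

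Neither of these 2 genes passed the test. ASNS was at 6583, 6995 and 6833 in the libraries labelled siKIF15 and at 6613, 7181 and 6793 in NC. The groups overlapped nearly fully, with means of 6804 ± 207.1 and 6862 ± 290.5 (SD, n = 3 each), and ASNS differed by -0.01 ± 0.07 on the log2 scale (SE; limma adjusted p = 0.92, 95% interval -0.15 to 0.13). CHAC1 was at 813.8, 809.2 and 686.2 in the libraries labelled siKIF15 and at 887.0, 789.0 and 804.4 in NC. Its groups overlapped too, and CHAC1 differed by -0.11 ± 0.10 on the log2 scale (SE; limma adjusted p = 0.55, 95% interval -0.33 to 0.12). Both intervals end below that of ATF4, which runs from 0.20 to 0.52 on the log2 scale; the difference between genes was not tested. CHAC1 signal per unit of ATF4 signal was 0.0280, 0.0258 and 0.0251 in the libraries labelled siKIF15 and 0.0368, 0.0373 and 0.0349 in NC.

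SLC7A11 encodes the cystine transporter subunit xCT, which feeds glutathione synthesis. It stood at 1325, 1175 and 1737 in the libraries labelled siKIF15 and at 1865, 2002 and 1953 in NC. The groups did not overlap, but siKIF15 3 lay close to NC and the other libraries labelled siKIF15 well below it. SLC7A11 fell by 0.48 ± 0.12 on the log2 scale (SE; 95% interval -0.72 to -0.23; limma adjusted p = 0.0095). Its longest annotated coding transcript is long and poor in GC, at 9.64 kb and 35.4% GC, and libraries of the same group differed along both properties. Across 13375 genes, which are not independent replicates, the deviation of each library from its group mean was set against both. Spearman correlations for siKIF15 1, 2 and 3 were 0.44, 0.43 and -0.63 with GC content and 0.03, -0.53 and 0.44 with length. For NC 1, 2 and 3 they were 0.14, -0.25 and 0.15 with GC content and -0.19, 0.06 and 0.12 with length. Such deviations show spread within a group and do not measure a difference between groups. The correction was fitted to each library without regard to group, so it also takes out any group change that runs with GC content or length. After correction for GC content and length the log2 change of SLC7A11 was -0.11 and the call ended (adjusted p = 0.159). It also ended without siKIF15 1 or NC 2 (adjusted p = 0.113 and 0.0886).

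NUPR1 encodes a small stress-induced chromatin protein that acts with ATF4. It stood at 30904, 34494 and 27366 in the libraries labelled siKIF15 and at 12724, 10855 and 11621 in NC. The lowest library labelled siKIF15 lay far above the highest NC library, and NUPR1 rose 2.64-fold (log2 change 1.39 ± 0.09 SE, 95% interval 1.21 to 1.58, limma adjusted p = 1.4e-08). It was the 374th by size of the 1599 genes called higher.

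DDIT4 and SESN2 encode stress-induced inhibitors of the growth kinase mTORC1, and they moved in opposite directions. DDIT4 (REDD1) stood at 10911, 11872 and 10133 in the libraries labelled siKIF15 and at 8826, 8999 and 8781 in NC. It rose 1.24-fold, a log2 change of 0.30 ± 0.07 (SE; limma adjusted p = 0.0075). SESN2, a leucine-binding sestrin, stood at 3036, 2935 and 2891 in the libraries labelled siKIF15 and at 3769, 3337 and 3912 in NC. It fell by 0.31 ± 0.08 on the log2 scale (SE; 95% interval -0.47 to -0.15; limma adjusted p = 0.011). The groups did not overlap for either gene. The call of DDIT4 ended without siKIF15 1 or NC 3 (adjusted p = 0.0636 and 0.0505), and that of SESN2 without siKIF15 1, NC 1 or NC 3 (adjusted p = 0.0592, 0.0706 and 0.0918).

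**Figure D4:**
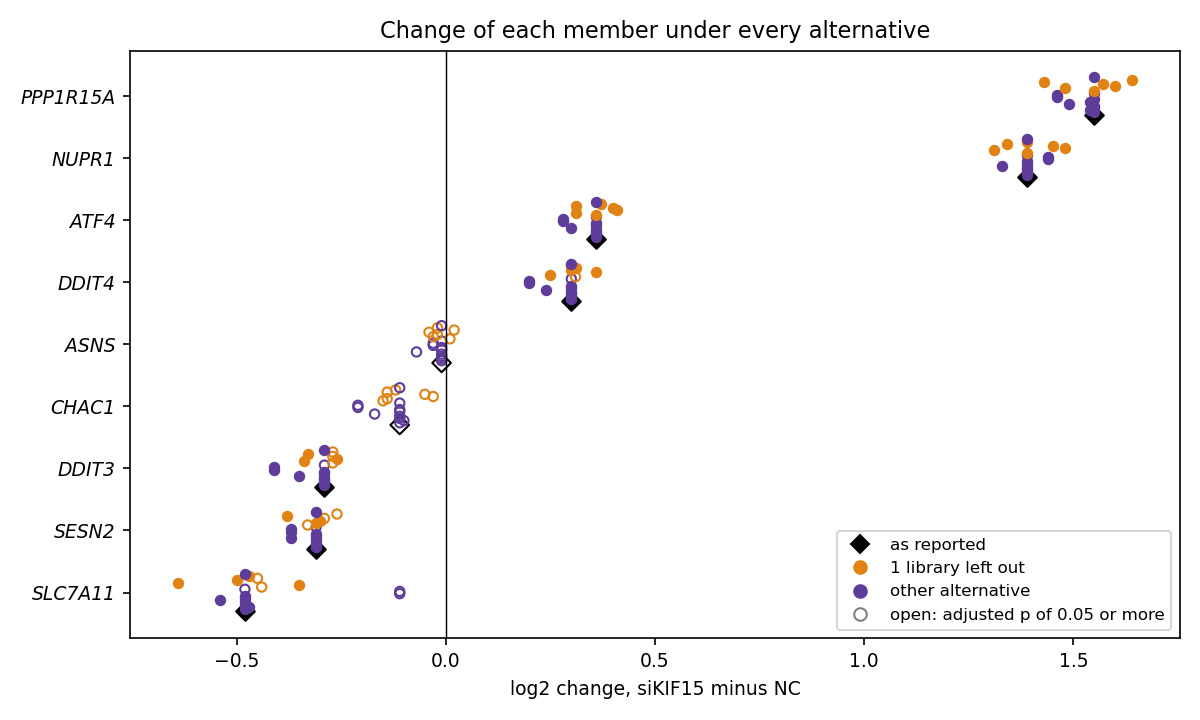
Log2 change, siKIF15 minus NC, of the members other than TRIB3 as reported (black diamonds), with 1 library left out (orange) and under the other alternatives (purple); open symbols have an adjusted p of 0.05 or more. PPP1R15A stays between 1.43 and 1.64 and NUPR1 between 1.31 and 1.48 with every symbol filled, and SLC7A11 moves to -0.11 under the GC and length correction.

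Upstream of ATF4, none of the 4 eIF2 alpha kinase genes passed in limma, and 1 of them, EIF2AK4, had an unadjusted p under 0.05. EIF2AK2 encodes PKR, the sensor of double-stranded RNA and a known interferon-inducible gene. It stood at 1285, 1094 and 1593 in the libraries labelled siKIF15 and at 1413, 1444 and 1348 in NC, with a log2 change of -0.10 ± 0.11 (SE; 95% interval -0.34 to 0.14; adjusted p = 0.61). ISG15, an interferon-stimulated gene chosen after its values were seen, stood 23.1-fold higher in the same libraries, at 159444, 179316 and 139598 against 7087, 6754 and 6883 in NC. The direction of EIF2AK2 depended on the processing: its longest transcript has 38.7% GC, and its log2 change was 0.23 after correction for GC content and length (adjusted p = 0.0099) and -0.24 without siKIF15 3 (adjusted p = 0.0457). EIF2AK1 (HRI), EIF2AK3 (PERK) and EIF2AK4 (GCN2) had log2 changes of -0.08, -0.17 and -0.23 (adjusted p = 0.46, 0.27 and 0.068). Without siKIF15 3, EIF2AK3 and EIF2AK4 were lower at -0.27 and -0.28 (adjusted p = 0.0162 and 0.0095), and EIF2AK4 also passed with libraries scaled to equal totals (-0.29, adjusted p = 0.0432). Among 8 genes of eIF2 and its exchange factor eIF2B, EIF2S1, the alpha subunit that the kinases phosphorylate, fell to 7523 ± 454.4 in the libraries labelled siKIF15, against 9697 ± 462.5 in NC (SD, n = 3 each; log2 change -0.37, adjusted p = 0.002). Its log2 change was -0.21 after the GC and length correction (adjusted p = 0.0118), and its call ended without the variance trend (adjusted p = 0.059). EIF2B2 rose 1.21-fold (adjusted p = 0.014), a call that ended without siKIF15 1, NC 1, NC 2 or NC 3 (adjusted p up to 0.0878), and the other 6 did not pass. Of these, EIF2S3 and EIF2B5 were called lower after the GC and length correction (-0.17 and -0.21, adjusted p = 0.00434 and 0.00326) and EIF2B1 higher (0.16, adjusted p = 0.025). Equal totals also gave calls for EIF2S3 and EIF2B5 (-0.26 and -0.22, adjusted p = 0.0227 and 0.0303). EIF2S3 and EIF2B1 passed without siKIF15 3 too (adjusted p = 0.00512 and 0.0451), and EIF2B5 without siKIF15 2 (adjusted p = 0.0421).

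Across the 11 lists of pathway genes beside the members, 17 of 96 tested genes rose, 18 fell and 61 did not pass, with a median log2 change of 0.01. The share called was 36.5%, against 18.0% of all genes tested and 24.1% of those with a mean of at least 500. By list it was 62.5% for transcription factors, 61.5% for the ATF6 and XBP1 branches and 57.1% for glutathione and redox genes. Amino acid transporters and other ATF4 or CHOP targets each stood at 42.9%, and mTORC1 regulation at 33.3%. The phosphatase genes and the eIF2 and eIF2B genes each stood at 25.0%. Lowest were aminoacyl-tRNA synthetases at 16.7%, amino acid synthesis at 10.0% and the kinases at 0.0%. Among transcription factors that pair with or resemble ATF4, 3 of 8 rose (JUN, JDP2 and ATF5) and 2 fell (MAF and ATF2). JUN, an AP-1 subunit, rose 1.33-fold (adjusted p = 0.00053). ATF3, a stress-induced repressor under ATF4, was at 7817, 7947 and 7548 in the libraries labelled siKIF15 and 8424, 8568 and 8327 in NC. It did not pass (log2 change -0.12, adjusted p = 0.22), although its groups did not overlap. Scaling to equal totals made ATF3 a lower call (-0.18, adjusted p = 0.0425). Correcting for GC content and length did so too (-0.18, adjusted p = 0.00265). Leaving out any 1 library did not (adjusted p from 0.173 to 0.406). Of 10 genes of serine, glycine, proline and related amino acid synthesis, the alanine transaminase gene GPT2 was the 1 that passed, rising 1.25-fold (adjusted p = 0.0066). That share of 10.0%, which is 1 gene of 10, is below the 18.0% of all genes tested and the 24.1% of those with a mean of at least 500. Of the 9 that did not pass, MTHFD2 was called at 0.26 after the GC and length correction (adjusted p = 0.00186), and PHGDH, PSPH and PYCR1 were called at 0.17, 0.18 and 0.20 without siKIF15 3 (adjusted p = 0.0442, 0.0403 and 0.0245). Of 7 amino acid transporter genes SLC1A5 rose and SLC38A2 and SLC7A5 fell. Of 12 aminoacyl-tRNA synthetase genes IARS and TARS fell. That share of 16.7% lies below the 18.0% of all genes tested and the 24.1% of those with a mean of at least 500. Without siKIF15 3, a fit that called 5077 genes in all, 3 of the 12 were called higher and 5 lower.

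Larger changes lay among 14 other genes described as ATF4 or CHOP targets, in either direction of control, where 4 rose and 2 fell. GDF15, a secreted stress factor, rose 2.94-fold (log2 change 1.56 ± 0.08 SE, adjusted p = 8.9e-10), CDKN1A (p21) 1.79-fold and the cell death gene BBC3 (PUMA) 1.94-fold; all of these are also targets of p53. ERO1A rose 1.25-fold, and VLDLR and the cyclin gene CCND1 fell, CCND1 by 0.61 on the log2 scale (adjusted p = 7.8e-06). Of 13 genes of the ATF6 and XBP1 branches of the unfolded protein response, 5 rose (XBP1, SDF2L1, CALR, HSPA5 and PDIA4) and 3 fell (EDEM1, ERN1 and SEL1L), with XBP1 highest at 1.76-fold. These counts moved with the processing. After the GC and length correction 8 were higher and 2 lower, with ATF6, HSP90B1 and PDIA6 gained (0.21, 0.18 and 0.14). Without siKIF15 3, PDIA6 was called higher and DNAJB9 and DNAJC3 lower. Without siKIF15 1, NC 1, NC 3 or the variance trend, XBP1 alone was called higher. Beside DDIT4 and SESN2, 1 of 9 genes of mTORC1 regulation rose (DDIT4L, 1.38-fold) and 2 fell. SESN3, a relative of SESN2, was at 4233, 3353 and 5516 in the libraries labelled siKIF15 and 7059, 7150 and 7178 in NC (log2 change -0.74, adjusted p = 0.00071), and TSC1 fell by 0.42. Beside SLC7A11 and CHAC1, 3 of 7 glutathione and redox genes fell (GCLC, TXNRD1 and GCLM) and HMOX1 rose. GCLC, the catalytic subunit of the first enzyme of glutathione synthesis, fell to 10932 ± 539.6 in the libraries labelled siKIF15, against 18922 ± 813.7 in NC (SD, n = 3 each; log2 change -0.79, adjusted p = 6.8e-07).

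Of these 35 calls beyond the members, 23, 7 and 0 ended without siKIF15 1, 2 or 3, and 16, 24 and 18 without NC 1, 2 or 3. The calls of EIF2S1, JUN, GDF15, CDKN1A, BBC3, CCND1, XBP1, SESN3, DDIT4L and GCLC held in each of those 6 fits. Without the variance trend 27 of the 35 calls ended, those of EIF2S1 and SESN3 among them (adjusted p = 0.059 and 0.0891), and with libraries scaled to equal totals 4 ended (ATF5, JDP2, ERO1A and PDIA4). Those of VLDLR, SEL1L, GCLM and PPP1R15B ended after the GC and length correction (log2 changes of -0.13, -0.06, -0.06 and -0.12). The calls whose size moved by over 1.5 times under that correction without ending were those of EIF2S1 (-0.21), ATF5 (0.15), ATF2 (-0.23), SLC38A2 (-0.35), IARS (-0.21), TARS (-0.13), ERO1A (0.51), ERN1 (-0.21), SDF2L1 (0.22), EDEM1 (-0.19), SESN3 (-0.39) and TSC1 (-0.23).

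**Figure D5:**
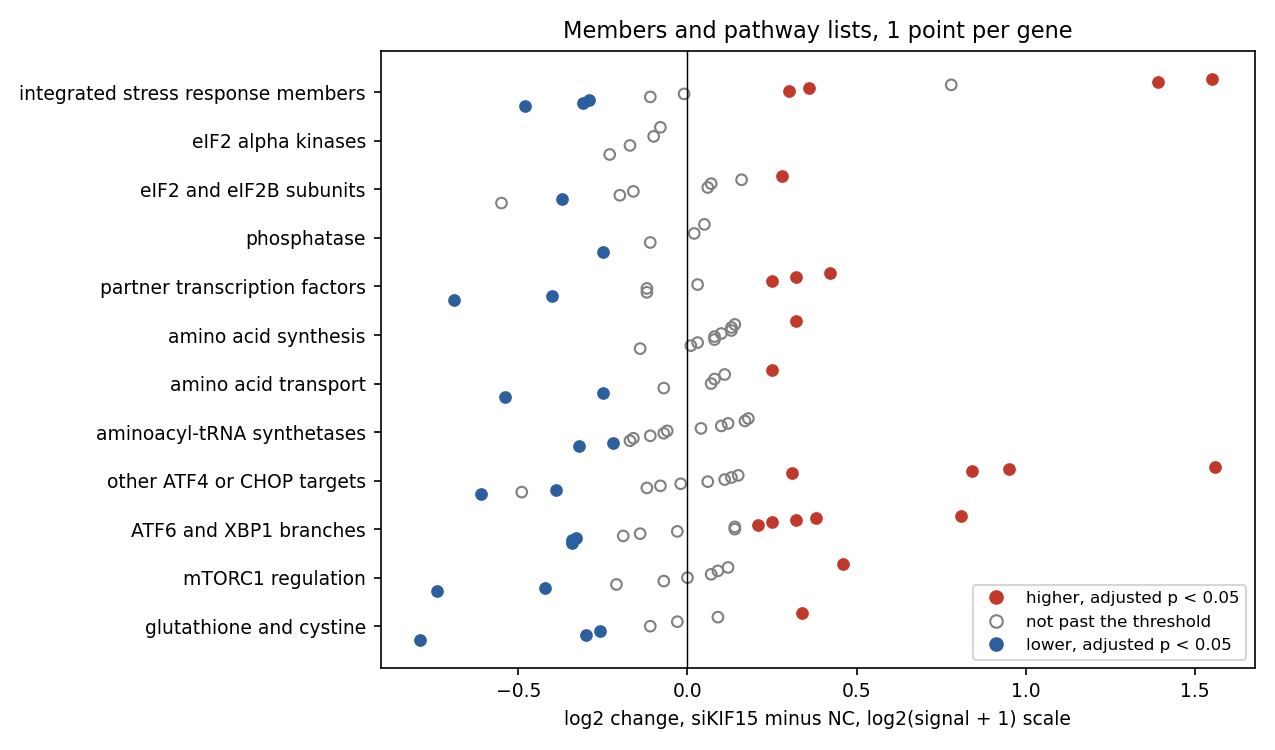
Log2 change, siKIF15 minus NC on the log2(signal + 1) scale, of the members (top row) and of 96 further pathway genes in 11 lists, 1 point per gene; filled red is higher and filled blue lower at an adjusted p under 0.05, open grey is neither. Most lists hold points on both sides of 0, and PPP1R15A, NUPR1 and GDF15 lie above 1.3.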

How the data were processed

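Gene expression was measured by RNA-seq in 3 libraries labelled siKIF15 and 3 labelled NC. The deposited files give 1 signal value per gene symbol and library. No header or label states the unit. From the values alone it appears to be gene counts adjusted to a common library size. Bowtie 0.12.2 is named in the submitters' processing notes, as are mm8 and mm9, which are mouse builds, while the cells are human; the human build, annotation and strand are not given in the sources used here. Depth is unknown, so no counting interval is given.

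All 6 libraries entered 1 limma fit (limma 3.58.1, R 4.3.3) with a variance trend and no covariate, on log2(signal + 1) over the 16548 genes whose mean reached 1 in either group. P-values were adjusted by Benjamini-Hochberg over all of these, with a threshold of 0.05. Changes are siKIF15 minus NC, which this scale understates for low genes. The script was tested on simulated data. The members and lists were chosen with earlier results of these data known. All members, the kinases and the phosphatase genes are named whatever their values; from other lists, up to 4 genes with the smallest adjusted p and all of a count of 5 or fewer; other names were chosen after their values were seen. CEBPB and GSS of the lists were not analysed here, and 1 prostate and 1 leukocyte marker are not reported here. Chromosomes came from RefSeq (GRCh38.p14), which held 16436 symbols as listed and 598 as synonyms. Transcript length and GC content came from the longest coding transcript in GENCODE 29, for 96.6% of symbols. How reads of overlapping genes or near-identical copies were counted is not stated. The alternatives were another pseudocount (0.5 or 10), another filter (none, or a mean of 10), other scalings, no variance trend, the replicate number as a block, the GC and length correction by loess, and each library left out.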

Additional observations from a re-analysis of the deposited data

How the results depend on the processing

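Over the alternatives each called member kept its direction, and PPP1R15A and NUPR1 kept their calls in all 17. Without the variance trend 1070 genes were called in place of 2978, with 2 members higher and 0 lower in limma (3 lower at an unadjusted p under 0.05, and ATF4, DDIT4, DDIT3, SESN2 and SLC7A11 at adjusted p of 0.0793, 0.0915, 0.0947, 0.096 and 0.143); the cause was not tested. With 1 library left out, the genes called ranged from 1184 (without siKIF15 1) to 5077 (without siKIF15 3), the members higher from 3 to 4, and the members lower from 0 (without siKIF15 1; 3 at an unadjusted p under 0.05) to 3, with 1 without NC 1 or NC 3; the cause was not tested. Equal totals gave 1205 higher and 1753 lower genes, against 1599 and 1379, and shifted the median log2 change of all genes to -0.064; the members kept 4 higher and 3 lower. After the GC and length correction, EIF2AK2 and ATF6 stood at 0.23 and 0.21, against -0.10 and -0.03 before, and were called; with the replicate block added they were again at 0.23 and 0.21. Without chromosome 20 genes, an alternative chosen after seeing the data, the same 4 and 3 members were called. Replicate numbers did not pair the libraries (correlations of same-numbered deviations 0.03, -0.06 and 0.02); with the number as a block 3184 genes and the same 4 and 3 members were called, and the calls of ATF5, PDIA4 and TMPRSS2 ended (adjusted p = 0.0565, 0.0577 and 0.0627). Of 1629 pairs of a pathway gene and an alternative, 1444 kept their status, whether called or not, 129 lost a call, 52 gained one and 4 reversed. Those 1444 include pairs called in neither fit, since 61 of the 96 genes had no call to keep.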
